A study of Mus musculus with 30 samples.

Results

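Neuronal progenitor cells (NPCs) that lacked endogenous MBD3 and carried MBD3 without its MBD domain (MBD3ΔMBD) were compared with NPCs that lacked MBD3 altogether (*Mbd3* KO), over all measured genes. The comparison rests on 6 poly(A) RNA-seq libraries, 3 of MBD3ΔMBD (s10, s11 and s12) and 3 of *Mbd3* KO (s04, s05 and s06), out of 24 such libraries among the 30 samples of the series. The question was which part of the transcriptional phenotype of *Mbd3* KO NPCs is altered by an MBD3 protein that has no MBD domain. Of 25400 genes in the deposited table, 16582 had enough counts to be tested.

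All cells were mouse embryonic stem cells (ESCs, line HA36CB1, 129×C57BL/6) differentiated in vitro for 8 days to the NPC stage. *Mbd3* KO ESCs had been made by CRISPR-Cas9 with guides against exons 2 and 3 of *Mbd3* (genotype label Mbd3-KO). In MBD3ΔMBD cells (label Mbd3-KO + Mbd3a_delMBD) the construct sat at a recombination site in these KO ESCs, inserted by Cre in cells that express the biotin ligase BirA, with a biotin tag and under the strong CAG promoter, so it was neither at the endogenous locus nor under the endogenous promoter. Values of further groups are given beside the comparison, wild type (WT, libraries s01 to s03) and *Mbd3* KO with full-length MBD3a from the same site (label Mbd3-KO + Mbd3a, libraries s07 to s09). The 3 libraries of each of these 4 groups were made from separately derived clones, so the spread within a group holds clonal differences too. The p-values rest on a spread estimated jointly from all 24 libraries of 8 groups. These include a group with the MBD2 isoform MBD2t, whose 3 libraries the paper describes as replicates of a single clone. Its libraries differed by a chi-square of 3.32 to 6.28 per gene, against 10.0 to 75.7 in KO and 31.0 to 52.6 in MBD3ΔMBD. The p-values therefore do not measure the clonal spread of the compared groups alone. None of the WT, *Mbd3* KO, MBD3a and MBD3ΔMBD groups carried a deletion of *Mbd2*.

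MBD3 is a core subunit of the Nucleosome Remodeling and Deacetylation (NuRD) complex, which joins a chromatin remodelling ATPase of the CHD family with the histone deacetylases HDAC1 and HDAC2 and is known for silencing pluripotency genes as ESCs leave the stem cell state. MBD3 and its paralog MBD2 occupy the same place in the complex and exclude each other. The MBD domain of MBD2 binds methylated CpG, whereas that of mammalian MBD3 has largely lost this binding. The disordered region and the coiled coil, both of which matter for contacts with NuRD, lie outside the MBD domain.

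The 6 libraries held between 27993858 and 43033788 counts, so 3 counts corresponded to 0.107 to 0.0697 CPM. CPM here is the count scaled to a common library size after TMM scaling. They are not corrected for gene length and are compared between libraries, not between genes. The *Mbd3* KO library s04 stood apart from its group. It differed from s05 and s06 by a chi-square of 67.5 and 75.7 per gene, against 10.0 between s05 and s06. The median of its chromosome 1 genes deviated by -0.365 on the log2 scale from the mean of the other KO libraries. Those of s05 and s06 deviated by 0.0887 and 0.282, each with s04 among the libraries of its reference. As these values are unequal, s05 and s06 may also differ on chromosome 1, which leaving out s04 does not remove. For every other autosome the medians of the KO and MBD3ΔMBD libraries stayed within 0.0702 of the mean of the other libraries of the group. Results are therefore also given without s04 where that changes them. Among the MBD3a libraries, given beside the comparison, the chromosome 19 medians deviated by -0.108 in s07, -0.146 in s08 and 0.254 in s09.

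The targeted gene was examined first. *Mbd3* (chromosome 10, 79855284-79862295, minus strand, mm9) was at 34.2, 73.8 and 69.1 CPM in the KO libraries s04, s05 and s06 and at 423, 496 and 426 CPM in the MBD3ΔMBD libraries s10, s11 and s12. The groups did not overlap, with means of 59 ± 21.6 and 448 ± 41.5 CPM (SD, n = 3) and a log2 fold change of 2.92 ± 0.29 (SE, adjusted p = 2.2e-07, quasi-likelihood F test of edgeR). WT libraries had 154 ± 4.06 CPM and MBD3a libraries 186 ± 16.2 CPM. The *Mbd3* level of MBD3ΔMBD lay above both, by 1.55 on the log2 scale against WT (adjusted p = 0.062) and by 1.27 against MBD3a (adjusted p = 0.39), differences that did not pass the test. The counts cover the gene as a whole, so reads from the construct and from the disrupted endogenous gene are not separated, and RNA remained in the KO libraries. The paralog *Mbd2* was at 65.3, 64.2 and 70.9 CPM in KO and at 35.4, 38.3 and 35.5 CPM in MBD3ΔMBD, a log2 fold change of -0.88 ± 0.21 that passed the test (adjusted p = 0.0015) but not the threshold on fold change.

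Across all genes, 5948 of 16582 (35.9%) were called, meaning here that the adjusted p was under 0.05 and the difference exceeded 1 on the log2 scale in either direction. Of these, 2483 (15% of the genes tested) were higher in MBD3ΔMBD and 3465 (20.9%) were lower. The median of the rises was 1.84 on the log2 scale and that of the falls -2.51, against 0.03 over all genes. The falls also reached further, since 681 genes fell by more than 4 on the log2 scale and 310 rose by as much. The ranges of the 3 and 3 libraries were separate in 97.6% of the called genes and in 69% of all genes tested. Separate ranges of called genes below are thus the rule. For the 10 largest rises and 10 largest falls they were a condition of the choice. In these bulk libraries fewer cells of a type and less RNA per cell cannot be told apart, and this holds for every gene below. Without s04, 5721 genes were called, 5448 of which were among the 5948.

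**Figure D1:**
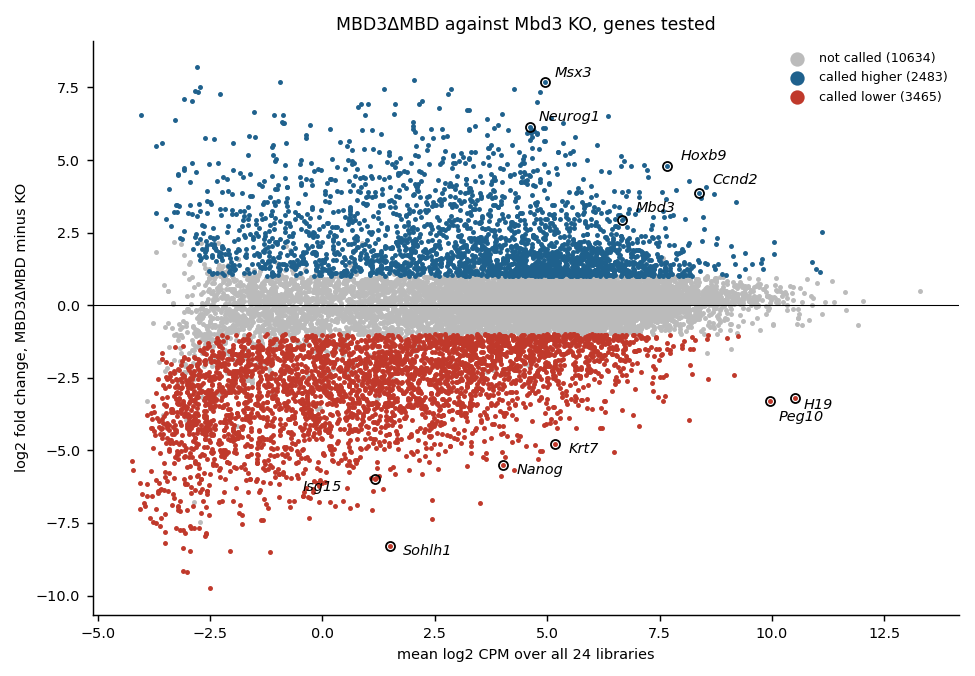
Log2 fold change of MBD3ΔMBD against *Mbd3* KO (vertical axis) for each gene tested, against its mean log2 CPM over all 24 libraries (horizontal axis). Blue points are the 2483 genes called higher, red points the 3465 called lower and grey points the 10634 not called. The strongest falls are among genes of low mean level, and abundant genes such as *H19* and *Peg10* lie among the falls as well.

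The 10 largest rises were taken among called genes whose mean log2 CPM was 1 or more and whose library ranges were separate. *Skor1*, a transcriptional corepressor of the developing dorsal spinal cord, was at 0.114, 0.155 and 0.264 CPM in KO and at 19.07, 45.3 and 52 CPM in MBD3ΔMBD (log2 fold change 7.75 ± 1.13, adjusted p = 1.1e-05). *Prdm13*, a factor of dorsal interneuron specification, went from 0.572, 1.08 and 0.688 CPM to 157, 141 and 122 CPM (log2 fold change 7.45 ± 0.69). *Msx3*, *Vxn*, *Fabp7*, *Pax3*, *Neurod4*, *Slc26a7*, *Zic1* and *Fstl5* made up the rest of the 10, at log2 fold changes between 6.92 and 7.67. Of the genes named here and below, *Vxn*, *Zic1*, *Dnmt3l*, *Hes5*, *Pax6*, *Neurog3*, *Slc32a1*, *Ncam1*, *Tfap2a*, *Wnt7b*, *Col4a1*, *Col4a2*, *Igf2*, *Nnat*, *Chd5*, *Rbbp4* and *Ankrd37* share exonic sequence with a gene on the opposite strand and are uncertain, since the strand setting of the counting is not given in the sources used here. *H19*, *Khdc3*, *Hoxc5* and *Trf* overlap exons of a gene on the same strand and are uncertain as well. The largest falls were those of *Sohlh1*, *Khdc3*, *Arl14epl*, *Sohlh2*, *Dnmt3l*, *Slc13a4*, *Acan*, *Isg15*, *Ifit1* and *Fga*, at log2 fold changes between -8.31 and -5.94. They include *Sohlh1*, *Khdc3* and *Sohlh2* of the germline list, *Isg15* and *Ifit1* of the interferon list, the fibrinogen alpha chain gene *Fga* and *Acan*, the gene of the cartilage proteoglycan aggrecan.

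**Figure D2:**
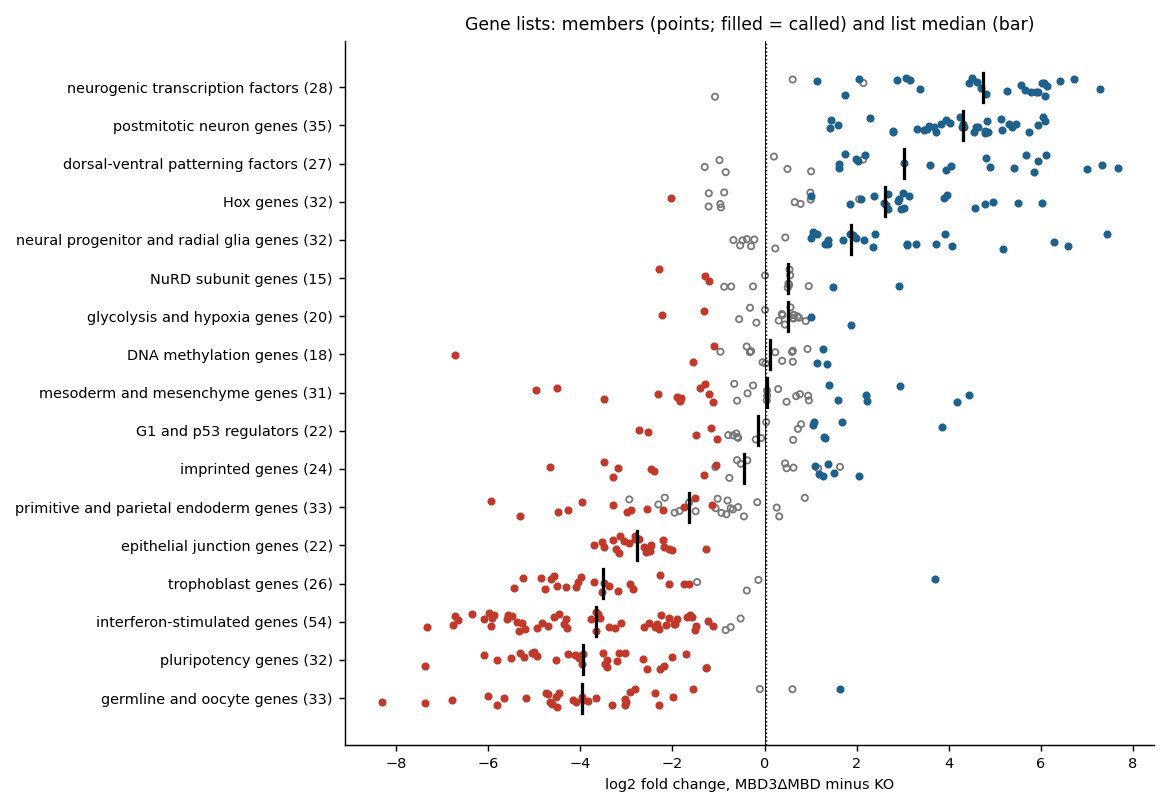
Log2 fold change of MBD3ΔMBD against *Mbd3* KO (horizontal axis) for the members of 17 gene lists (rows, with the number of members tested). Each point is a gene, filled blue or red where called higher or lower and open where not called, black bars are list medians, and the dotted line is the median of all genes tested at 0.03. Lists of neural genes lie to the right, with medians from 1.87 to 4.76, and pluripotency, germline, interferon, trophoblast and epithelial lists to the left, with medians from -3.97 to -2.76.

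The label of the samples, ES-derived neural progenitor cells, was set beside the levels of markers of neural progenitors and radial glia. This list was chosen with earlier results of these data known, so it is no independent check of the label. Of 32 markers tested, 24 (75%, against 15% of all genes) were called higher in MBD3ΔMBD than in KO. None was called lower and the median log2 fold change was 1.87. *Fabp7*, the brain lipid-binding protein of radial glia, was at 0.343, 0.376 and 0.291 CPM in KO and at 53.5, 81.6 and 44.1 CPM in MBD3ΔMBD (log2 fold change 7.45 ± 0.63, adjusted p = 5.3e-08). *Hes5*, a Notch effector that keeps progenitors undifferentiated, was at 0.743 to 0.952 CPM in KO and at 67.4 to 108 CPM in MBD3ΔMBD, though it shares exonic sequence with a gene on the opposite strand. *Pax6*, the homeodomain factor that marks radial glia, rose from 3.52, 12.2 and 14.1 CPM to 140, 139 and 118 CPM (log2 fold change 3.72 ± 0.48, adjusted p = 3.0e-06, also with an opposite-strand overlap). Summed over the list, the KO libraries had 770 to 969 CPM, the MBD3ΔMBD libraries 4557 to 5106, WT 3802 to 4939 and MBD3a 4248 to 4863. Most of the listed markers were called higher in MBD3ΔMBD than in the KO libraries, which carry the same cell type label, and 8 were not called. The 3 most abundant markers not called, *Dbi*, *Hes1* and *Lhx2*, had log2 fold changes of 0.23, 0.45 and -0.48.

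Neurogenic transcription factors rose nearly as a block. Of 28 tested, 25 (89.3%, against 15% of all genes) were called higher and none lower, with a median log2 fold change of 4.76. *Neurog1*, a proneural bHLH factor that starts neuronal differentiation, was at 1.03, 1.86 and 1.96 CPM in KO and at 112, 125 and 109 CPM in MBD3ΔMBD (log2 fold change 6.14 ± 0.58, adjusted p = 1.4e-07). Its relative *Neurog2* went from 0.343, 0.465 and 0.476 CPM to 44.5, 47.5 and 46.2 CPM (6.73 ± 0.55). *Neurod4*, which acts after the neurogenins, rose from 0.143, 0.31 and 0.264 CPM to 33.4, 39.9 and 42.6 CPM (7.28 ± 0.63). In all 3 genes the lowest MBD3ΔMBD library was far above the highest KO library. For *Neurod4* separate ranges were a condition of its choice among the largest rises. The MBD3ΔMBD means of the 3 genes, 115, 46.1 and 38.6 CPM, stood beside WT means of 134, 52.2 and 47 CPM. *St18*, a zinc finger factor of neuronal differentiation on chromosome 1, went from 0.4 to 1.15 CPM in KO to 48.3 to 106 CPM in MBD3ΔMBD (6.43 ± 0.70, and 6.11 without s04). Not called were *Isl1*, *Neurog3* and *Neurod2*, all at or under 1.18 CPM in every library of both groups. *Neurog3*, at 0.0286 CPM in s04 and 0.752 and 1.03 CPM in s05 and s06, was called lower once s04 was left out (log2 fold change -1.58, adjusted p = 0.032).

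Dorsal-ventral patterning factors give progenitors of the neural tube their positional identity. Of 27 tested, 20 (74.1%, against 15% of all genes) were called higher and none lower, with a median log2 fold change of 3.03. *Msx3*, a homeobox gene of the dorsal neural tube, was at 1.34, 1.28 and 1.16 CPM in KO and at 238, 297 and 240 CPM in MBD3ΔMBD (7.67 ± 0.59, adjusted p = 1.9e-08). *Pax3*, another dorsal factor, went from 1.26, 1.28 and 1.22 CPM to 214, 212 and 183 CPM (7.33 ± 0.57, and 7.34 without s04, since the gene is on chromosome 1). *Lbx1*, which specifies dorsal interneurons, rose from 0.4, 1.44 and 2.22 CPM to 66.9, 108 and 109 CPM. No KO library reached the MBD3ΔMBD range in any of the 3 genes, and ranges were separate in 97.6% of all called genes. For *Msx3* and *Pax3* this was a condition of their choice among the largest rises. The most abundant members not called were *Lmx1b* (log2 fold change -0.98, adjusted p = 0.029), *Lmx1a* (-0.84) and *Wnt3a* (1.01). Without s04, *Lmx1a* was called lower (-1.13) and *Wnt3a* higher (1.66). Across the 18 alternative settings of the processing, at least 1 member was called lower in 13, and *Lmx1b* was called in 11.

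Hox genes, which encode anterior-posterior position, rose in most cases. Of 32 tested, 21 (65.6%, against 15% of all genes) were called higher, 1 lower and 10 were not called (median 2.62 on the log2 scale). *Hoxa6* went from 0.515, 1.84 and 2.12 CPM in KO to 76.3, 89.7 and 131 CPM in MBD3ΔMBD (6.03 ± 0.70, adjusted p = 1.1e-06). *Hoxb9* was at 8.005, 41.3 and 44.9 CPM in KO and at 514, 1015 and 1099 CPM in MBD3ΔMBD (4.80 ± 0.78). Both KO ranges lay below the MBD3ΔMBD ranges, and s04 was the lowest library in each. The exception was *Hoxa13* (-2.02, adjusted p = 0.024), called lower from 0.8, 0.177 and 0.185 CPM in KO and at most 0.0973 CPM in MBD3ΔMBD. That call rests on s04, without which its log2 fold change was -1.01 (adjusted p = 0.29). *Hoxc5*, *Hoxb1* and *Hoxc8*, the most abundant members not called, had log2 fold changes of 1.00, -0.95 and 0.66, and *Hoxb1* was called lower without s04 (-1.21).

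Genes of postmitotic neurons were all called higher, 35 of 35 (100%, against 15% of all genes), with a median log2 fold change of 4.32 and the smallest at 1.42. *Elavl4*, an RNA-binding protein of neurons, was at 0.543, 2.21 and 3.73 CPM in KO and at 88.1, 147 and 168 CPM in MBD3ΔMBD (5.94 ± 0.64, adjusted p = 4.9e-07). *Scg3*, a secretory granule protein, went from 0.286, 1.06 and 1.35 CPM to 45.3, 68.8 and 69.8 CPM. *Slc32a1* and *Gad2*, the vesicular transporter and a synthesizing enzyme of the inhibitory transmitter GABA, rose by 6.08 ± 0.96 (opposite-strand overlap) and 5.75 ± 1.00 on the log2 scale. Library s10 was the lowest of the MBD3ΔMBD libraries in each of these 4 genes (9.44 CPM for *Gad2* against 33.4 and 44.8 CPM) and still above every KO library. Among the genes of the surface markers CD24 and CD56, *Cd24a* was at 183, 261 and 276 CPM in KO and at 583, 671 and 669 CPM in MBD3ΔMBD (1.42 ± 0.18, adjusted p = 2.3e-06). *Ncam1*, the gene of CD56, rose from 14.2, 25.9 and 29.6 CPM to 177, 225 and 295 CPM (3.32 ± 0.46, with an opposite-strand overlap). Without s04, 34 of the 35 were called.

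**Figure D3:**
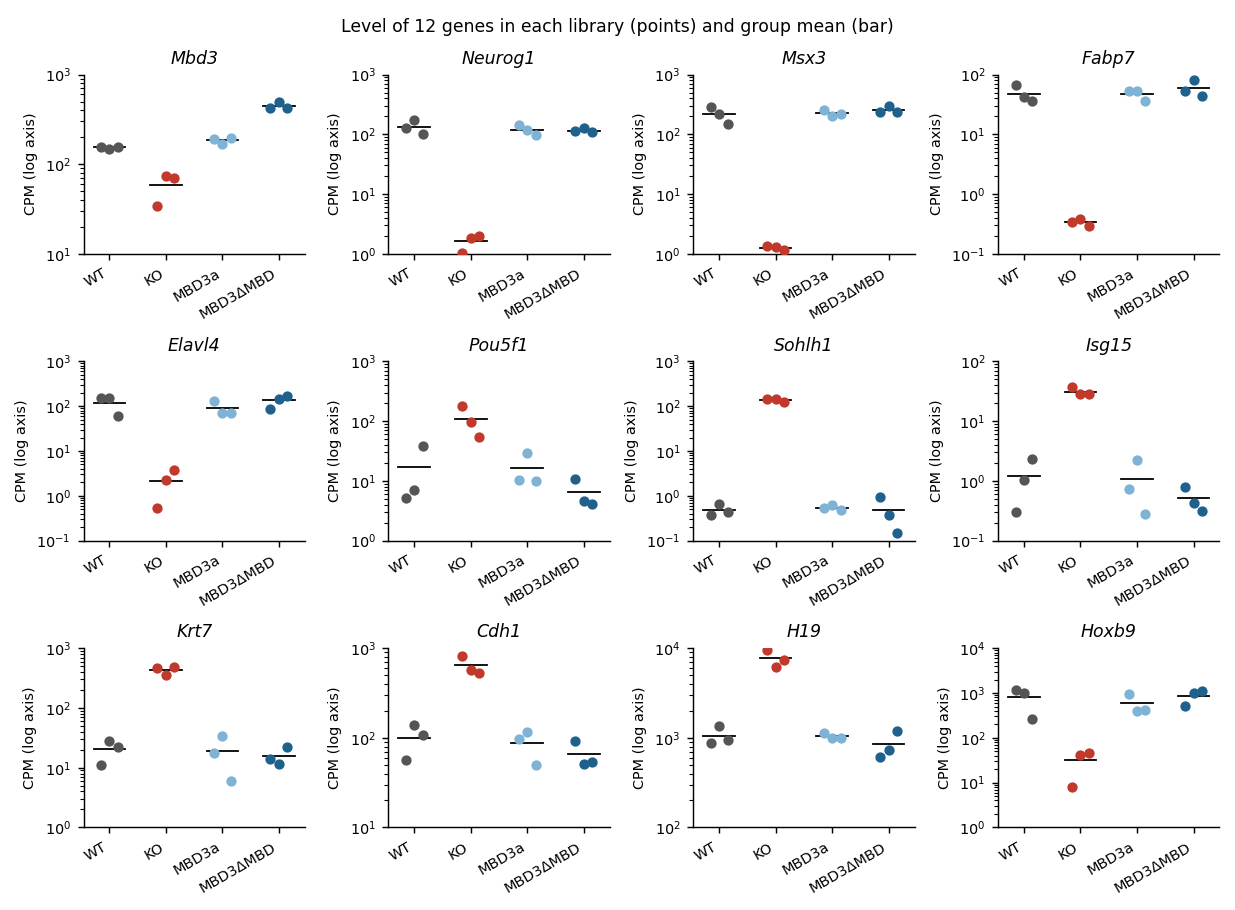
CPM (log axis) of 12 genes in each WT, *Mbd3* KO, MBD3a and MBD3ΔMBD library (points) with the mean of the group (bar). The KO libraries stand apart from the MBD3ΔMBD libraries in all 12 genes, and the MBD3ΔMBD range overlaps that of the WT and MBD3a libraries in all but *Mbd3*, where MBD3ΔMBD is higher.

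Pluripotency genes went the other way. Of 32 tested, 31 (96.9%, against 20.9% of all genes) were called lower in MBD3ΔMBD, none higher, and the median log2 fold change was -3.95. *Pou5f1*, which encodes the core pluripotency factor OCT4, was at 176, 95.3 and 55 CPM in KO and at 10.5, 4.63 and 4.09 CPM in MBD3ΔMBD (-4.11 ± 0.85, adjusted p = 0.00037). *Nanog* fell from 164, 84.3 and 40.3 CPM to 4.78, 0.978 and 0.998 CPM (-5.52 ± 1.37, adjusted p = 0.0017), and *Klf4* from 44.5, 41.2 and 44.2 CPM to 8.26, 6.18 and 7.86 CPM (-2.55 ± 0.67). The groups did not overlap, but the KO libraries spread widely, and s04 was highest for *Pou5f1* and *Nanog* while *Klf4* was even. *Tdgf1*, *Dppa5a* and *Zfp42*, further markers of the stem cell state, fell by 5.82, 5.31 and 5.22. Summed levels of the list were 955 to 2479 CPM in KO, 141 to 238 in MBD3ΔMBD, 150 to 495 in WT and 199 to 431 in MBD3a. *Lefty2*, a Nodal antagonist on chromosome 1, was the member not called (-1.25, adjusted p = 0.066, and -0.79 without s04).

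Germline and oocyte genes are normally silent in somatic cells, many of them through methylation of CpG-rich promoters. In MBD3ΔMBD 30 of 33 tested (90.9%, against 20.9% of all genes) were called lower than in KO. Only 1 was called higher and the median log2 fold change was -3.97. *Sohlh1*, a bHLH regulator of spermatogonia and oocytes, had the largest fall, from 144, 144 and 125 CPM to 0.917, 0.374 and 0.146 CPM (-8.31 ± 0.42, adjusted p = 1.3e-10). Its partner *Sohlh2* fell from 121, 116 and 122 CPM to 2.33, 0.546 and 0.608 CPM (-6.80 ± 1.02), and *Khdc3*, of the subcortical complex of the oocyte, from 125, 123 and 120 CPM to 1.376, 0.604 and 0.389 CPM (-7.38 ± 0.57). In these 3 genes the KO libraries were close to each other. All 3 are among the 10 largest falls, for which separate ranges were a condition of the choice. *Khdc3* overlaps exons of another gene on the same strand, so its reads may be shared. *Tuba3a*, a testis alpha-tubulin with near-identical copies, fell by 5.81. *Gdf9*, an oocyte growth factor, went against the list, from 0.172, 0.31 and 0.529 CPM to 1.07, 1.06 and 1.05 CPM (1.63 ± 0.52, adjusted p = 0.011). *Prdm9* and *Brdt*, not called, had log2 fold changes of -0.10 and 0.61.

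Many germline promoters hold the E-box CACGTG, a site bound by MYC, MAX and related bHLH factors. In the 250 bases before the annotated gene start (mm9), searched for these letters, which read the same on both strands, 16 of the 33 germline genes tested (48.5%) held it, against 1273 of 16578 genes (7.68%). A match is only a match of letters. The windows of *Sohlh1*, *Khdc3* and *Gdf9* are shown 5′ to 3′ in the direction of the gene with CACGTG in capitals, because the first has it 3 times and because the gene that rose has it as well as the genes that fell:
Sohlh1 (chr2:25702769-25703018, - strand): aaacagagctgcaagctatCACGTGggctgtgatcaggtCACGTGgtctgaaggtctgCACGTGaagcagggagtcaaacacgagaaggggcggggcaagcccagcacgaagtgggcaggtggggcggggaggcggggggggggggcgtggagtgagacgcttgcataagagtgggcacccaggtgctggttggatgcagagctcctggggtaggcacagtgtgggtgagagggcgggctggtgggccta
Khdc3 (chr9:72949393-72949642, + strand): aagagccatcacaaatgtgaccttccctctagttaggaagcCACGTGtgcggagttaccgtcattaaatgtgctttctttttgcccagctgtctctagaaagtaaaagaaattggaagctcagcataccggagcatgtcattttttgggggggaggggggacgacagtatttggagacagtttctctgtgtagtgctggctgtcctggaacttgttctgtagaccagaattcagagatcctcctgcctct
Gdf9 (chr11:53244275-53244524, + strand): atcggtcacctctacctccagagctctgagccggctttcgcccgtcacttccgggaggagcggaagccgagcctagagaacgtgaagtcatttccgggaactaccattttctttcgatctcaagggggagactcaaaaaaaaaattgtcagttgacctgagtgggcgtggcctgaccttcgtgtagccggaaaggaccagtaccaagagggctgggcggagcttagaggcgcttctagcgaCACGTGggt

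Interferon-stimulated genes, the effectors of the antiviral response, fell in nearly the whole list. Of 54 tested, 51 (94.4%, against 20.9% of all genes) were called lower in MBD3ΔMBD, none was higher, and the median log2 fold change was -3.66. *Ifit1*, which binds foreign RNA caps, was at 27.1, 26.9 and 27.3 CPM in KO and at 0.764, 0.288 and 0.341 CPM in MBD3ΔMBD (-5.95 ± 0.85, adjusted p = 9.2e-06). *Isg15*, a ubiquitin-like modifier, fell from 36.9, 28.3 and 28 CPM to 0.803, 0.431 and 0.316 CPM (-5.99 ± 0.86), and *Rsad2*, the gene of viperin, from 40.9, 28.9 and 25.4 CPM to 0.688, 0.489 and 0.462 CPM (-5.89 ± 0.77). The KO libraries were even for *Ifit1*, s04 was the highest of them for *Isg15* and *Rsad2*, and all MBD3ΔMBD libraries were under 1 CPM. *Rtp4* fell by 5.61. The most abundant members not called were *Samhd1*, *Stat2* and *Ifit2*, at log2 fold changes of -0.52, -0.84 and -0.74, which passed the test but not the threshold on fold change. Summed levels ran from 1985 to 2426 CPM in KO and from 370 to 454 CPM in MBD3ΔMBD, against 423 to 592 in WT and 456 to 566 in MBD3a.

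The core of the interferon-stimulated response element, read here as GAAA, any 2 bases and GAAA, was searched on both strands of the same windows. It was found in 19 of the 54 interferon-stimulated genes (35.2%), against 476 of 16578 genes (2.87%). The windows of *Ifit1* and *Isg15*, which hold it 2 and 3 times (overlapping in *Isg15*), are shown 5′ to 3′ with the matches of either strand in capitals, as examples of the windows that hold these letters, which most windows of the list do not:
Ifit1 (chr19:34715111-34715360, + strand): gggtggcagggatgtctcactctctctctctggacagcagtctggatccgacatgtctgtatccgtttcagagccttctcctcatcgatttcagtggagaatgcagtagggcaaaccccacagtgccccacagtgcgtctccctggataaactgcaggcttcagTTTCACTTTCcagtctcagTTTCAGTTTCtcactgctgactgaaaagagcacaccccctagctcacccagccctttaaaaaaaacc
Isg15 (chr4:155574928-155575177, - strand): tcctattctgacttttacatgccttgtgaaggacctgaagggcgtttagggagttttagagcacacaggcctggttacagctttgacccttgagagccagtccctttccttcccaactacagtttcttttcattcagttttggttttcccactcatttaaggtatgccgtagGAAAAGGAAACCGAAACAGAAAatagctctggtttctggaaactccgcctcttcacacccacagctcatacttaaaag

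Over all called genes, the windows of genes that fell were poorer in CpG. The ratio of observed to expected CpG had a median of 0.44 in genes called lower, 0.63 in genes called higher and 0.71 in genes not called, with GC contents of 56.4%, 59.2% and 58%. Of 4514 genes with a ratio under 0.4, 35.5% were called lower and 14.1% higher, and of 9092 genes with a ratio over 0.6, 12.4% were called lower and 14.6% higher. The germline list differed from the other falling lists, with a median ratio of 0.64 against 0.33 for interferon-stimulated and 0.35 for pluripotency genes. Genes of the rising lists ranged from 0.52 (postmitotic neuron genes) to 0.75 (Hox genes). The windows of *Msx3*, which rose, and *Nanog*, which fell, are shown with CpG in capitals as a window near the median of all genes (13 CpG) and one well below it, with 14 and 3 CpG:
Msx3 (chr7:147235040-147235289, - strand): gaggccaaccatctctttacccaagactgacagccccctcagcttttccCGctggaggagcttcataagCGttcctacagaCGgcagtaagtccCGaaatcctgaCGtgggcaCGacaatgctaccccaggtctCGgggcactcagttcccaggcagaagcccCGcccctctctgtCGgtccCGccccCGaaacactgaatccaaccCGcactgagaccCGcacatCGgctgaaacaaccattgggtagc
Nanog (chr6:122657257-122657506, + strand): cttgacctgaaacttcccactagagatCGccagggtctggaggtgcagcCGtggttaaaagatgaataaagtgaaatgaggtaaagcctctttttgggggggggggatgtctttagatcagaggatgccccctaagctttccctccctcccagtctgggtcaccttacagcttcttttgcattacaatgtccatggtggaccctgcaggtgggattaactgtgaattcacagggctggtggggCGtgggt

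**Figure D4:**
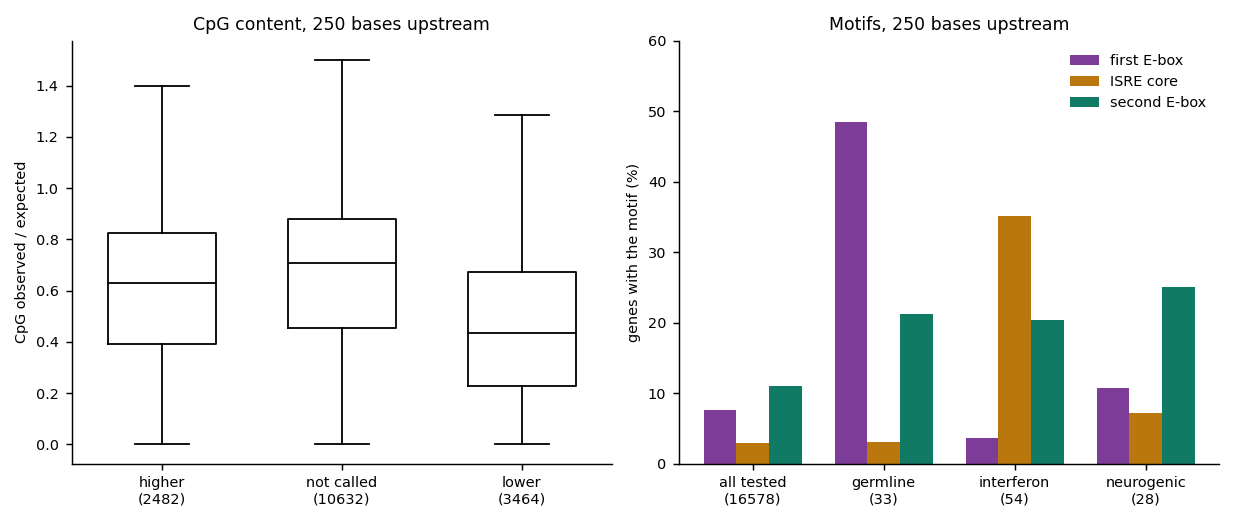
Left, ratio of observed to expected CpG in the 250 bases upstream of the gene for genes called higher, not called and called lower in MBD3ΔMBD against *Mbd3* KO (line, median; box, quartiles; whiskers, to 1.5 box heights; number of genes below). Right, share of genes with 3 motifs in the same window (first E-box, CACGTG; second E-box, CAGATG). The called-lower box sits lowest, and the first E-box and the ISRE core are most frequent in the germline (48.5%) and interferon (35.2%) lists.

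Trophoblast genes mark the extraembryonic lineage that forms the placenta. They were called lower in 22 of 26 cases (84.6%, against 20.9% of all genes) and higher in 1, with a median log2 fold change of -3.50. *Krt7*, a keratin of trophoblast, was at 472, 359 and 481 CPM in KO and at 13.9, 11.6 and 22.2 CPM in MBD3ΔMBD (-4.78 ± 0.71, adjusted p = 1.3e-05). The placental homeobox genes *Rhox6* and *Rhox9* fell by 4.85 and 4.64, and *Hand1*, a bHLH factor of giant cells, from 106, 85.5 and 125 CPM to 2.68, 2.67 and 8.10 CPM. Every KO library was above every MBD3ΔMBD library for these genes. Ranges were separate in 97.6% of all called genes and in 69% of all genes tested. *Tfap2a* went against the list (3.71 ± 0.60, opposite-strand overlap), a factor that is also expressed in neural crest and dorsal neural cells. *Cited2*, *Wnt7b* and *Tpbpa* were not called.

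Epithelial junction genes were all called lower, 22 of 22 (100%, against 20.9% of all genes), with a median of -2.76. *Cdh1*, the gene of E-cadherin, was at 820, 574 and 535 CPM in KO and at 91.4, 51.7 and 53.5 CPM in MBD3ΔMBD (-3.30 ± 0.40, adjusted p = 1.7e-06). *Epcam* went from 217, 205 and 207 CPM to 27.5, 20.2 and 19.6 CPM, and *Cdh3* and *Krt19* fell by 3.70 and 3.53. The library ranges were separate in all 22, as they were in 69% of all genes tested. *Cdh2*, the gene of N-cadherin and a member of the progenitor list, named here after its values were seen, rose by 3.30.

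Genes of the other lineages that differentiating ESCs can form were mixed. Of 33 genes of primitive and parietal endoderm tested, 13 (39.4%, against 20.9% of all genes) were called lower and none higher (median -1.64). *Fga* went from 16, 16.9 and 20.9 CPM in KO to 0.612, 0.259 and 0.0973 CPM in MBD3ΔMBD. The iron carrier gene *Trf* went from 37.5, 29.8 and 31.7 CPM to 1.15, 0.719 and 0.681 CPM. The basement membrane genes *Col4a1*, *Col4a2* and *Sparc* were not called (-1.496, -1.64 and -0.74), with standard errors of 0.77, 0.76 and 0.70 in the fit over all groups. With only the 2 groups in the fit 20 members were called lower, where 3302 of 15909 genes tested were. Of 31 mesoderm and mesenchyme genes, 7 were called higher and 11 lower (22.6% and 35.5%, against 15% and 20.9% of all genes, median 0.05). *Foxf1*, of lateral mesoderm, fell by 4.52, and *Cdh5*, of endothelium, fell by 2.30. *Col3a1* rose from 1.89, 23.2 and 16.5 CPM to 80.8, 278 and 397 CPM (4.18 ± 0.92, and 3.67 without s04), and *Twist1* and *Lum* rose by 2.94 and 4.45. In these 3 mesenchymal genes s10 was the lowest MBD3ΔMBD library. Without s06, 7 mesoderm and mesenchyme genes were called lower, where 3473 of 16765 genes tested were.

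Imprinted genes, expressed from 1 parental allele, were called in both directions, 6 higher and 8 lower of 24 tested (25% and 33.3%, against 15% and 20.9% of all genes, median -0.44). *H19* and *Igf2*, neighbours on distal chromosome 7 that are read from opposite alleles, fell together. *H19* was at 9603, 6106 and 7458 CPM in KO and at 609, 733 and 1199 CPM in MBD3ΔMBD (-3.19 ± 0.42, adjusted p = 4.0e-06), and *Igf2* at 3075, 2098 and 2819 CPM in KO and at 268, 446 and 808 CPM in MBD3ΔMBD (-2.39 ± 0.52), both with exon overlaps as named above. *Peg10*, a placental gene derived from a retrotransposon, fell from 5418, 3783 and 3941 CPM to 495, 321 and 519 CPM, and *Phlda2*, which restrains placental growth, fell by 4.66. *Ndn*, *Magel2* and *Mkrn3*, of one imprinted cluster on chromosome 7, rose by 1.51, 1.39 and 1.18 on the log2 scale. No KO library of these 7 genes fell into the MBD3ΔMBD range, and ranges were separate in 97.6% of all called genes. *Plagl1* and *Nnat* were called higher with all libraries (2.05 and 1.10) and lost the call without s04 (adjusted p = 0.066 and 0.086).

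Among the 15 NuRD subunit genes, 2 were called higher and 3 lower (13.3% and 20%, near the shares of all genes), with *Mbd3* itself as one of the rises. *Hdac2*, a deacetylase subunit, was at 112, 126 and 118 CPM in KO and at 319, 350 and 335 CPM in MBD3ΔMBD (1.498 ± 0.13, adjusted p = 8.7e-08). *Mta3* went from 174, 120 and 116 CPM to 30.3, 26.8 and 27.1 CPM (-2.28 ± 0.24), and *Chd5* fell by 1.30. *Chd4*, the main remodelling ATPase, had 752, 740 and 729 CPM in KO and 1076, 1046 and 1145 CPM in MBD3ΔMBD, a difference of 0.56 ± 0.19 that was under the threshold on fold change, as were *Rbbp4* (0.50) and *Gatad2a* (-0.72). All 15 subunit genes passed the filter on low counts, and most differed by less than the threshold.

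Of 18 genes of the DNA methylation list, 3 rose and 3 fell (16.7% each way, near the shares of all genes, median 0.13). *Dnmt3l*, the cofactor of de novo methylation in germ cells and ESCs, was at 120, 28.5 and 17.3 CPM in KO and at 0.994, 0.489 and 0.219 CPM in MBD3ΔMBD (-6.72 ± 1.19, opposite-strand overlap). *Dnmt3b*, the methyltransferase of early embryonic cells, fell by 1.56 ± 0.26, and the dioxygenase gene *Tet3* rose by 1.28 ± 0.37. The maintenance genes *Dnmt1* and *Uhrf1* differed by -0.32 ± 0.14 and -0.04 ± 0.16 and were not called.

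Of 22 regulators of G1 and of the p53 response, 6 rose and 5 fell (27.3% and 22.7%, against 15% and 20.9% of all genes, median -0.13). *Ccnd2*, the cyclin D gene of neural progenitors, was at 25.4, 72.3 and 78 CPM in KO and at 1022, 727 and 803 CPM in MBD3ΔMBD (3.86 ± 0.39, adjusted p = 2.9e-07). The cyclin-dependent kinase inhibitor genes *Cdkn2a* and *Cdkn2b* fell by 2.73 and 2.53, and *Cdkn2c* rose by 1.69. *Sesn2*, a p53 target, went from 167, 131 and 138 CPM to 51.8, 51.7 and 51.8 CPM, and *Trp53* differed by -0.07 ± 0.11. Of 20 glycolysis and hypoxia genes, 2 were called higher and 2 lower (10% each way, against 15% and 20.9% of all genes, median 0.50). Their counts changed without s04, to 4 higher and 1 lower, where 2302 and 3419 of 16775 genes tested were called higher and lower. Across the 18 alternative settings of the processing, the count higher left the range within 1.5 times the main count in 13, and the count lower did so in 4. *Ankrd37* rose by 1.89 and *Adm* fell by 2.24, while *Pkm*, *Gapdh* and *Aldoa* differed by 0.75, 0.31 and -0.18.

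The size of these differences can be set beside the distance of MBD3ΔMBD from cells with intact or full-length MBD3. The comparisons share the MBD3ΔMBD libraries, so each is given by its own values. Against WT, 3 of 16582 genes (0.0181%) passed, each with the lower level in MBD3ΔMBD, and 1187 had an unadjusted p under 0.05. The median absolute log2 fold change was 0.17 against WT, 0.15 against MBD3a and 0.68 against KO. Over the 5948 genes called against KO it was 0.30 against WT, 0.33 against MBD3a and 2.21 against KO. Against MBD3a no gene was called (0%) by edgeR, 650 genes had an unadjusted p under 0.05, and DESeq2 called 12. The absence of calls does not show that the lines were alike. The 95% interval of the difference from WT lay within 1 on the log2 scale for 11358 genes (68.5%), but for 2377 (40.0%) of the genes called against KO, and WT libraries were the most spread, with a median SD of 0.24 on the log2 CPM scale against 0.16 in MBD3ΔMBD. The *Pou5f1* levels show this spread, at 5.26, 7.15 and 38.7 CPM in WT and 10.2, 28.8 and 9.86 CPM in MBD3a. Pluripotency and germline lists had medians of -1.09 and -1.37 against WT and of -1.09 and -0.89 against MBD3a, with no member called. WT library s03 stood apart from s01 and s02, by a chi-square of 178 and 153 per gene, against 23.3 between s01 and s02. *Nanog*, for example, was at 0.805, 3.33 and 30.7 CPM in s01, s02 and s03. The medians of the lists against WT were not computed without s03.

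**Figure D5:**
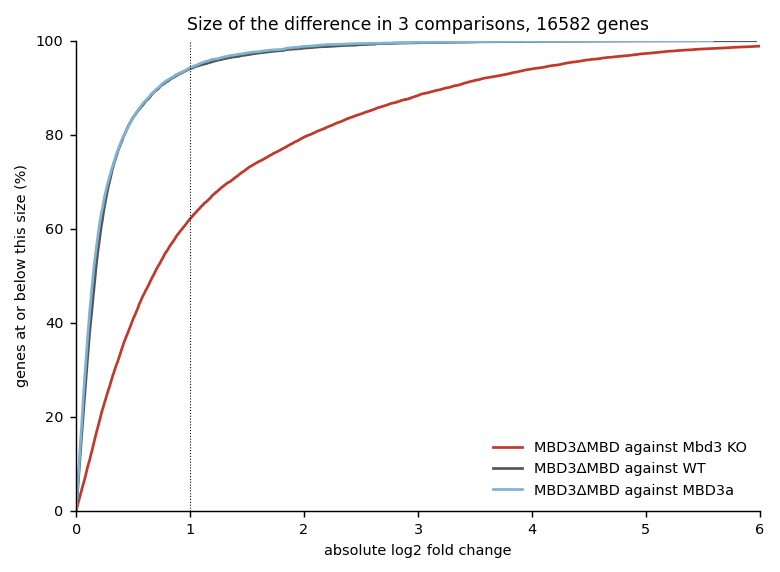
Share of the 16582 genes tested (vertical axis, percent) whose absolute log2 fold change is at or below the value on the horizontal axis, for MBD3ΔMBD against *Mbd3* KO, WT and MBD3a. The dotted line marks 1, and the curve against KO lies below the other curves, which run close together.

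The 3 genes called against WT are all on the Y chromosome. *Eif2s3y*, *Ddx3y* and *Uty* were at 0.259 to 0.535, 0.144 to 0.487 and 0.115 to 0.560 CPM in MBD3ΔMBD, and at 17.4 to 29.1, 4.94 to 9.60 and 9.25 to 17.6 CPM in WT. The KO libraries had 1.27 to 6.86, 3.17 to 7.89 and 0.899 to 2.04 CPM, and all 4 genes tested on this chromosome were called lower in MBD3ΔMBD than in KO. MBD3a libraries ran from 0.451 to 10.7 CPM for *Eif2s3y*. The levels of these genes thus varied between clones of a single group as well as between groups, and what sets them was not tested.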

How the data were processed

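Poly(A) RNA was sequenced from day 8 NPCs as single-end reads of a directional kit, and 24 libraries of 8 groups were used, 3 per group, while 6 chromatin samples of the series were not analysed here. Per the labels and the methods of the study, the authors trimmed reads with Trim Galore 0.6.6, aligned them with STAR to mm9 and counted them per gene of GENCODE with QuasR, and the deposited table holds these raw counts. The strand setting of the counting is not given in the sources used here.

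From these counts, genes of low counts were removed (filterByExpr by group), libraries were scaled by TMM, and all groups were fitted together in edgeR 4.0.16 and tested by its quasi-likelihood F test (R 4.3.3, limma 3.58.1), with Benjamini-Hochberg adjustment over all 16582 genes. Genes were called at an adjusted p under 0.05 and an absolute log2 fold change over 1. Each SE was obtained from the fold change on the log2 scale and the F statistic (its absolute value over the root of F). DESeq2 1.42.0, other scalings, other filters, fewer groups and leaving out each library were alternatives. Columns of the table name a library and its group. The point mutant columns (MBD2aR64C, labelled R181C) entered only through the filter, the scaling and the spread shared by all groups. Without them 16516 genes were tested. The steps were tested on simulated data. An exact permutation test of 3 against 3 libraries cannot give a p below 0.1 and was not used.

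Genes named in the text were the 10 largest rises and 10 largest falls at a mean log2 CPM of 1 or more with separate ranges, per list the 4 called members of largest change at that level, the members called against the majority and the 3 most abundant members not called, the genes called against WT, and a few genes named by the study, and not all of these are reported here. The members and lists were chosen with earlier results of these data known. Upstream windows of 250 bases were read from the NCBIM37 (mm9) genome before the start of each gene in the annotation, for 16578 of 16582 genes, and searched with Python 3.11.15.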

Additional observations from a re-analysis of the deposited data

How the results depend on the processing

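The count of 5948 genes called between MBD3ΔMBD and KO became 10277 without the threshold on fold change, since fewer conditions were then required, and lay between 4110 (a test against the threshold itself, glmTreat) and 6341 (no filter) in the other alternatives, with 5877 by DESeq2 and 5706 to 6051 when single libraries were left out. Library size alone as the scaling moved the median of all genes from 0.03 to -0.15 and the share of falls among the calls from 58.3% to 65.1%. The 3 calls against WT became 0 with glmTreat, with the legacy quasi-likelihood test and without the point mutant libraries (added after seeing the data), 4 with library size alone and 23 by DESeq2. They ranged from 0 to 8 when single libraries were left out, with 8 without s01 and 0 without s02, s10, s11 or s12. Against MBD3a the count of 0 became 1 with only the 2 groups in the fit and 12 by DESeq2. For these changes the cause was not tested. Of the 144 named genes, 100 kept their side of the threshold under all alternatives run, and no direction of a called gene turned. Of 34 list counts, 16 stayed within 1.5 times the main count under all. Among the others the endoderm falls went from 13 to 20 with only the 2 groups and to 8 without s11. The falls over all genes went from 3465 to 3302 and 3364 in these settings. No paired analysis was possible because the columns carry no replicate numbers. Depth limits genes at or under 3 counts, which is 0.0697 to 0.107 CPM in the 6 libraries.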

Other observations

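The following genes were chosen after their values were seen. At 1 CPM or more in every MBD3ΔMBD library and 3 or fewer counts in every KO library were 7 genes, *Glra2*, *Ndp*, *Pdzph1*, *Prox1os*, *Prrxl1*, *Pth2r* and *Mir3078*. *Ndp*, the gene of the Wnt pathway ligand norrin, had a mean of 3.24 CPM in MBD3ΔMBD, *Prrxl1*, a homeobox gene of sensory neurons, 2.96 CPM and *Glra2*, a glycine receptor subunit, 2.61 CPM. In the other direction there were 55 genes, among them *Ciita*, the coactivator of MHC class II genes, the antiviral genes *Mx1* and *Oas2*, the acute phase genes *Saa1*, *Saa2*, *Saa3* and *Hp*, and the vitamin D hydroxylase gene *Cyp24a1*.

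Summed levels of the glycolysis and hypoxia list ran from 11163 to 11762 CPM in MBD3ΔMBD, below the 13307 to 15103 CPM of WT and the 12816 to 15672 CPM of MBD3a, with KO at 6956 to 11648 CPM. No member of the list was called against WT or MBD3a. Summed levels of the NuRD subunit list ran from 4054 to 4116 CPM in MBD3ΔMBD, above the 3160 to 3682 CPM of WT and the 3512 to 3814 CPM of MBD3a, and this sum includes *Mbd3*. For the 13 mitochondrial genes, the median difference of MBD3ΔMBD from KO was -0.65 on the log2 scale, and none was called. On chromosome 1, 200 of 973 genes (20.6%) were called higher with s04 included, against 15% of all genes, and on chromosome 18 it was 90 of 417 (21.6%).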
